A study of Mus musculus with 36 samples.

Results

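The genes examined here encode 6 methyltransferases of lysine 4 of histone H3 (*Kmt2a*, *Kmt2b*, *Kmt2c*, *Kmt2d*, *Setd1a* and *Setd1b*), 2 demethylases of the same residue (*Kdm5a* and *Kdm5b*) and *Kdm6b*, a demethylase of lysine 27. They were taken by name, 9 of the 21951 protein-coding genes of the annotation, by a rule that uses no measured value. For each gene the data give the position and width of peaks of H3K4me3 (K4me3) and H3K27me3 (K27me3) within 3 kb of an annotated transcription start site (TSS) in whole pancreas. There were 3 mice of each of 4 genotypes and 24 peak lists. Control mice carry the label wild type and, by the study's methods, were C57BL/6 mice or mice with the Mist1creERT allele alone. EZH2ΔSET mice (EZ) carry Mist1creERT/+ and a floxed *Ezh2* that loses the exons of its catalytic SET domain, KR mice carry Mist1creERT/+ and a second conditional allele, and KE mice carry all 3 alleles. Every mouse was 2 to 4 months old and was sampled 22 days after the start of tamoxifen, which switches on a Cre recombinase driven from *Mist1*, a gene of acinar cells. Other cells of the organ keep their alleles, and the tissue was not sorted. The *Ezh2* deletion cannot be checked here, because K4me3 at its start lies outside the deleted exons, and *Ezh2* had K4me3 in all 12 mice.

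K4me3 marks the starts of genes that are active or poised for activity, and K27me3, written by the Polycomb complex PRC2 through EZH2 or EZH1, marks silenced genes. The methyltransferases work in COMPASS complexes that share the core subunits WDR5, ASH2L, RBBP5 and DPY30. SETD1A and SETD1B place K4me3 at most active promoters, KMT2A and KMT2B act at chosen promoters such as those of *Hox* genes, and KMT2C and KMT2D mainly place the monomethyl mark at enhancers. KDM5A and KDM5B remove K4me3, whereas KDM6B removes the K27me3 that PRC2 deposits.

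The peak lists hold no height or read count, so sequencing depth is unknown, and presence and width are the only readouts. The lists held 17400 to 26081 K4me3 peaks and 21420 to 31274 K27me3 peaks. Control replicate 2 stood apart, with the fewest peaks of both marks and the most genes with K27me3 within 3 kb (24.6%, against 10.6% to 15.8% in the other 11 mice). All 6 acinar markers (*Ptf1a*, *Bhlha15*, *Cpa1*, *Cela1*, *Cel* and *Rbpjl*) had K4me3 in every mouse, and 3 of 4 duct, 1 of 5 islet, 1 of 3 fibroblast, 0 of 2 endothelial and 0 of 4 leukocyte markers did. *Ptprc* had K4me3 in 4 mice (control replicate 2, EZ replicate 2, KR replicate 1 and KE replicate 1), and *Cd3e* only in control replicate 2 and KR replicate 1, while *Adgre1* and *Csf1r* had none in any mouse. The endothelial marker *Pecam1* had it in control replicate 2, KR replicate 1 and KE replicate 1. K4me3 at *Xist* was called in 8 mice and at 4 Y-linked genes in the other 4, which were EZ replicate 2 and all 3 KR mice. These 4 mice had 10 to 35 K27me3 peaks on the X chromosome, and the other 8 had 5637 to 7367. KR mice thus differed in sex chromosomes from every control and KE mouse. All 9 genes are autosomal, but in comparisons with KR the genotype can be told apart from this difference only through the single such EZ mouse.

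The sequences upstream of 4 of the genes are shown because they carry 2 contrasting K4me3 patterns described next: a gap in the peak at the start in some mice (*Kmt2a* and *Kmt2c*) and a peak over the start in all (*Kmt2d* and *Kdm5b*). Each is the 250 bases before the RefSeq start on build GRCm38.p6, 5′ to 3′ on the gene's strand, with CG dinucleotides in capitals. *Kmt2a* lies at chr9:44881290-44881539 (minus strand), *Kmt2c* at chr5:25498784-25499033 (minus), *Kmt2d* at chr15:98871206-98871455 (minus) and *Kdm5b* at chr1:134559928-134560177 (plus).
Kmt2a: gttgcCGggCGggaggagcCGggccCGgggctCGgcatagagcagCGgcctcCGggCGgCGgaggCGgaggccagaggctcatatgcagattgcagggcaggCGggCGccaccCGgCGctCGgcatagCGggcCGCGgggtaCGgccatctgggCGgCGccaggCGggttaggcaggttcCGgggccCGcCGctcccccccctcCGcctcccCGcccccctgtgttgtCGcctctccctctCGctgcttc
Kmt2c: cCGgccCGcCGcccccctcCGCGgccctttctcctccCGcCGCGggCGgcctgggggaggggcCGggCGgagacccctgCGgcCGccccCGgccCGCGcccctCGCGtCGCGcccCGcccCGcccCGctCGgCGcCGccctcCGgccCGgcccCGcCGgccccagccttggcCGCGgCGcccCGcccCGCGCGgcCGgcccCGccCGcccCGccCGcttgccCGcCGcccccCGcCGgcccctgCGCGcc
Kmt2d: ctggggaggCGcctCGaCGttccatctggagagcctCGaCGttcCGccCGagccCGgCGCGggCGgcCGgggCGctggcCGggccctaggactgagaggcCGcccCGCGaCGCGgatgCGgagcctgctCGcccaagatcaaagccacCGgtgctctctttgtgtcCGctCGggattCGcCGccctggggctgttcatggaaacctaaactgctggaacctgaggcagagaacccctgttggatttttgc
Kdm5b: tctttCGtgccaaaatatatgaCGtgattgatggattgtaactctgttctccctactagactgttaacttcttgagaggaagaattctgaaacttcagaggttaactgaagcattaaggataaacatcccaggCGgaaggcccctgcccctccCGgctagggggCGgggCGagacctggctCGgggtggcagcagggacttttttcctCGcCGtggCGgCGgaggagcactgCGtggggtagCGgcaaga

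The *Kmt2c* stretch holds 48 CG dinucleotides, more than 99.8% of 32851 promoters of the table, whose median is 6. The *Kmt2a* stretch holds 29, that of *Kmt2d* 26 and that of *Kdm5b* 13. All 4 hold the letters GGGCGG on one strand or the other, which overlap a CG each time and occur in 32.7% of all promoters of this length. *Setd1a*, the only other of the 9 genes with an entry, has 25 CG dinucleotides and no match. The *Kmt2d* and *Kdm5b* stretches lay wholly inside a K4me3 peak in 12 of 12 mice. The *Kmt2c* stretch was covered in 10 mice and bare in 2, and that of *Kmt2a* was covered in 9, partly covered in 1 and bare in 2. Within 1 kb of the GENCODE start, 8 of the 9 genes had more CpG sites (124 to 258) than the upper quartile, 116, of the 12478 genes with K4me3 in all mice. The exception was *Kdm6b*, with 26.

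All 9 genes had a K4me3 peak within 3 kb of a TSS in all 12 mice, as did 56.8% of protein-coding genes. None had a K27me3 peak anywhere in its gene body, which was not counted for other genes. None had one within 3 kb of a TSS in any mouse, 0 of 108 pairs of gene and mouse. K27me3 narrower than the 5 kb floor of the lists would be missed here. Of the 12478 protein-coding genes with K4me3 in all mice, 78.0% likewise had no K27me3 in any, and of the autosomal ones 80.1%. The K27me3 lists do hold calls at known Polycomb targets: *Hoxd13*, *Hoxa13* and *Sim1* were called in 12 of 12 mice. Of the other reference targets, *Pax3* was called in 11, *Olig2* in 9 and *Wnt1* in 2, so the lists do not hold every target in every mouse. Since no call of either mark changed, no member had a mark in all 3 mice of one genotype and in none of another. Over all protein-coding genes such switches were seen for K4me3 in 0.128% (KR against control), 0.137% (KE against KR), 0.155% (KE against control) and 0.109% (EZ against control), and for K27me3 in 1.84%, 3.31%, 0.305% and 0.205%, in the same order. The comparisons with KR set mice that differ in sex chromosomes against each other, and over the 20807 autosomal genes the shares were 0.0961%, 0.115%, 0.154% and 0.111% for K4me3 and 0.25%, 0.423%, 0.231% and 0.207% for K27me3. At these shares no switch among 9 genes is near the background.

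**Figure D1:**
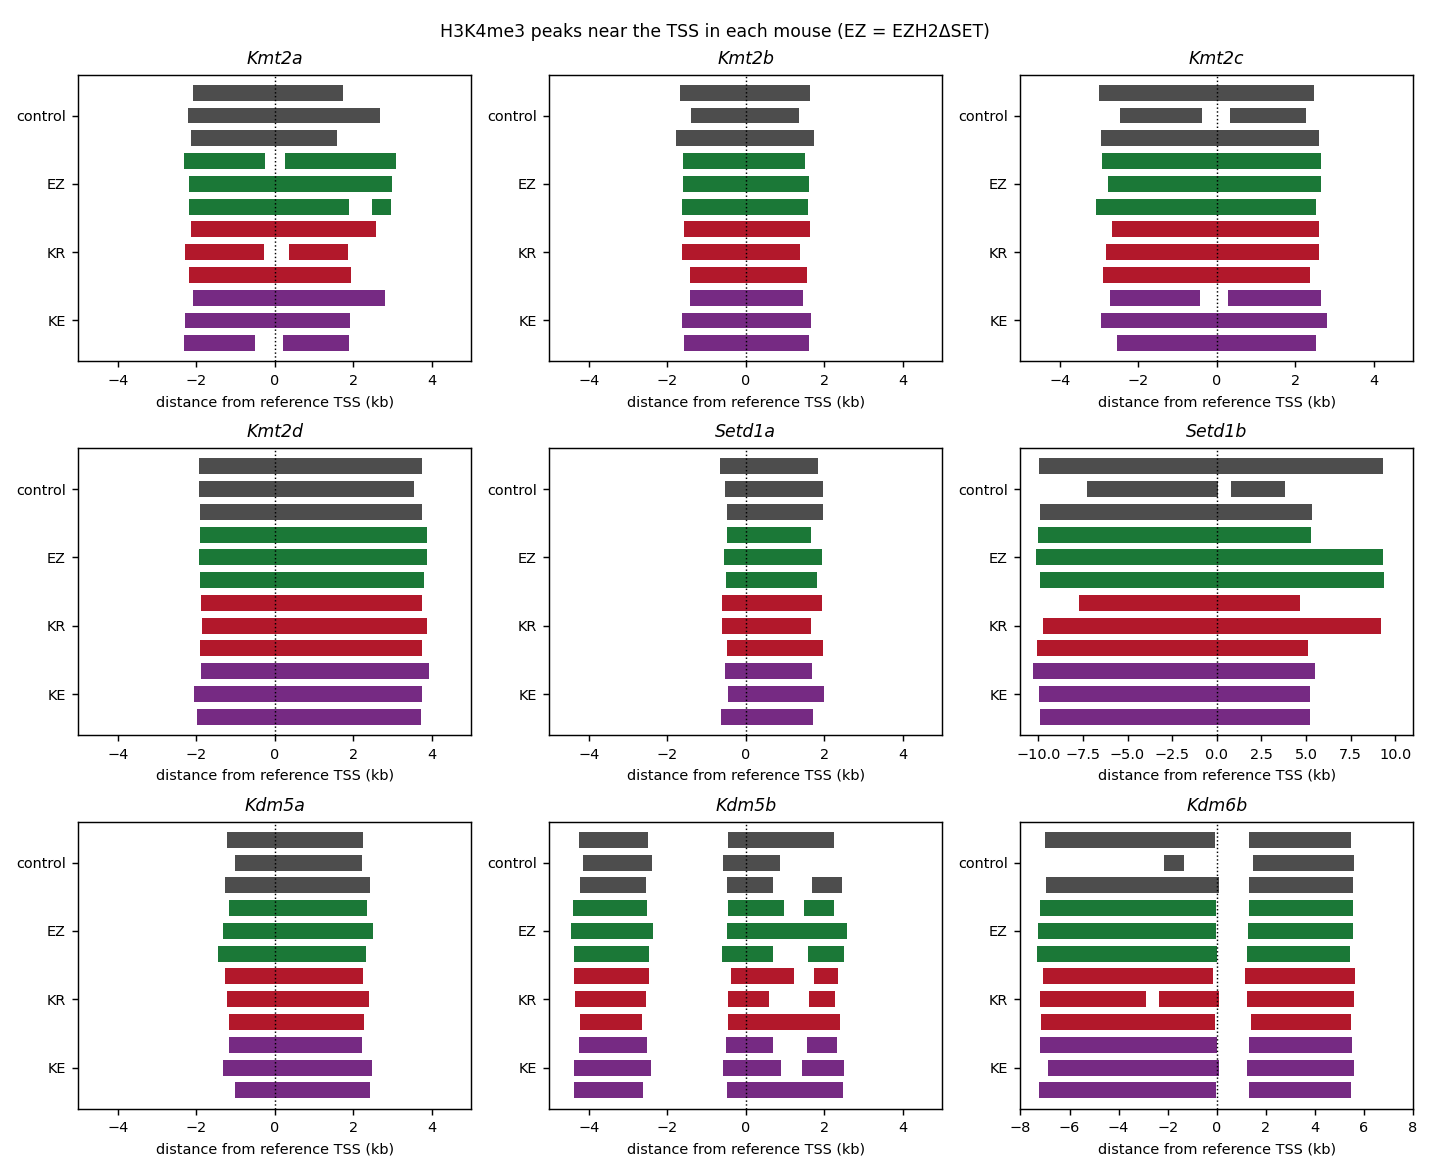
K4me3 peaks within 3 kb of any TSS of each gene, drawn as bars at their distance in kb from the reference TSS (dotted line, negative upstream), with 1 row per mouse and colors for genotype. The peak of *Kmt2d* kept nearly the same ends in all 12 mice, while *Kmt2a* and *Kmt2c* had a gap at the TSS in 3 and 2 mice.

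The width of the K4me3 peak differed far more between the genes than between genotypes. Among the SET1 type enzymes, *Setd1b* (chromosome 5, 123142193 to 123168629, plus strand) had the widest peak of the 9 genes in 12 of 12 mice. Its widest peak measured 19299, 7393 and 15263 bp in control replicates 1, 2 and 3, 15345, 19450 and 19294 bp in EZ, 12375, 18958 and 15147 bp in KR, and 15848, 15195 and 15133 bp in KE. The 4 genotypes overlapped, and the lowest value of all came from control replicate 2. The median of 15304 bp ranked 10 among 12478 genes. In 10 mice the peak began 9.74 to 10.3 kb upstream of the TSS, and it began at 7.30 and 7.73 kb in control replicate 2 and KR replicate 1. In the 4 mice with a peak over 18 kb it ended 9.21 to 9.37 kb downstream, and in the other 8 it ended at most 5.52 kb downstream. When peaks less than 1 kb apart were joined, 11 of the 12 mice had 18341 to 19653 bp and control replicate 2 had 11126 bp. The 2 narrowest single peaks, in control replicate 2 and KR replicate 1, were in the 2 libraries with K4me3 at *Cd3e*. The acinar regulator *Bhlha15* also had its narrowest peaks there, 4658 and 5263 bp against 6228 to 12592 bp elsewhere, and what part this had in the width of *Setd1b* was not tested.

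The *Setd1b* domain held further starts. At least 1 annotated start of each of the noncoding genes *AI480526*, *4932422M17Rik* and *Gm38102* lay in it in 12 of 12 mice, and that of *Rhof*, a small GTPase gene on the other strand 9.50 kb upstream, in 10 of 12. *Rhof* was assigned the same peak, so that its width was the same in every mouse (Pearson r = 1 across 12 mice). The next most similar patterns of library-centred width among 12478 genes were those of *Taok3* (r = 0.965) and *Entpd1* (r = 0.951), given as a description over 12 libraries of unknown depth. *Setd1a* (chromosome 7, 127776670 to 127800122, plus strand), the other SET1 type enzyme, had an undivided peak of 2147 to 2551 bp in all mice. It therefore had less than the lowest *Setd1b* value in every mouse, and its median of 2438.5 bp was close to the 2330 bp of all genes with K4me3 in 12 mice.

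Of the 4 *Kmt2* genes, *Kmt2d* (chromosome 15, 98831669 to 98871204, minus strand) was the most uniform. Its peak measured 5686, 5479 and 5676 bp in control, 5779, 5813 and 5707 bp in EZ, 5631, 5743 and 5656 bp in KR, and 5806, 5793 and 5706 bp in KE. The coefficient of variation over 12 mice was 1.64%, the lowest but 3 of 12478 genes, whose median was 8.67%. A stretch of 5422 bp from 1.86 kb upstream to 3.56 kb downstream of the TSS was covered in all 12 mice, 90.8% of all bases covered in any mouse. Control mice overlapped KR mice but not EZ or KE mice, whose lowest values were 5707 and 5706 bp. Such a lack of overlap was seen in 11.6% of all genes for EZ and 8.01% for KE against control. With each library centered on its median width, the log2 difference between EZ and control was -0.01.

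*Kmt2c* (chromosome 5, 25271798 to 25498783, minus strand) had an undivided peak of 5076 to 5754 bp in 10 mice. In control replicate 2 and KE replicate 1 the call was divided at the TSS, which left a widest piece of 2092 and 2383 bp. Joined, the pieces spanned 4753 and 5388 bp, the former below and the latter within the range of the undivided peaks. The gap lay over the stretch with 48 CG dinucleotides shown above, and all other mice had a peak there.

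*Kmt2a* (chromosome 9, 44803355 to 44881296, minus strand) varied most, with a coefficient of variation of 28.9%. Its widest peak measured 3828, 4905 and 3720 bp in control, 2812, 5171 and 4084 bp in EZ, 4725, 2022 and 4121 bp in KR, and 4912, 4195 and 1792 bp in KE. The values of 2812, 2022 and 1792 bp, in EZ replicate 1, KR replicate 2 and KE replicate 3, were those of peaks divided at the TSS, so that 1 mouse of each mutant genotype and no control mouse showed the gap. Joined across gaps under 1 kb, the spans were 3828, 4905 and 3720 bp in control and 5392, 5171 and 5160 bp in EZ, which no longer overlapped, as was the case for 11.7% of all genes with joined peaks. They were 4121 to 4725 bp in KR and 4195 to 4912 bp in KE. The log2 difference between EZ and control turned from -0.08 with single peaks to 0.35 ± 0.11 (SE) with joined peaks, where its 95% confidence interval of 0.10 to 0.59 excluded 0. With each library centered as well it was 0.30 (-0.02 to 0.61). Neither passed the adjustment over all genes (limma adjusted p = 0.761 and 0.793). *Kmt2b* (chromosome 7, 30568858 to 30588726, minus strand) had an undivided peak of 2755 to 3510 bp that covered the TSS in all 12 mice.

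Among the demethylases, *Kdm5a* (chromosome 6, 120364124 to 120444574, plus strand) had an undivided peak of 3241 to 3827 bp, which also held the start of *Ccdc77* on the other strand 0.250 kb away in 12 of 12 mice. *Kdm5b* (chromosome 1, 134560171 to 134635285, plus strand) had instead several peaks in every mouse. The stretch from 4.14 to 2.65 kb upstream lay in a peak in 12 of 12 mice, and a stretch of 962 bp around the TSS was covered in all. Downstream, 4 mice had 1 peak from the TSS to beyond 2 kb (control replicate 1, EZ replicate 2, KR replicate 3 and KE replicate 3), 7 mice had a gap and a separate peak that ended 2.255 to 2.51 kb away, and control replicate 2 had no second peak. Its widest peak was 2699, 1741 and 1689 bp in control, 1878, 3050 and 1915 bp in EZ, 1891, 1819 and 2869 bp in KR, and 1714, 1972 and 2963 bp in KE. These values are of 2 different peaks. In the 4 mice with the long downstream peak (2699 to 3050 bp), 1 of each genotype, the widest peak was the one over the TSS, and in the other 8 (1689 to 1972 bp) it was the upstream one, while their peak over the TSS measured 1036 to 1602 bp. The *Kdm5b* width and its genotype differences therefore do not follow a single peak. With a window of 1 kb, which leaves out the upstream peak, the log2 differences were 0.02, 0.05, 0.07 and 0.09 in KR against control, KE against KR, KE against control and EZ against control, each ± 1.10 (half-width of the 95% confidence interval, lowest limma adjusted p = 0.972).

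*Kdm6b* (chromosome 11, 69398508 to 69413675, minus strand), the K27 demethylase, had K4me3 on both sides of a bare stretch that began within 0.158 kb of its GENCODE start in 11 mice. The downstream peak ran from 1.15 to 1.49 kb to 5.42 to 5.63 kb past that start in 12 of 12 mice. The upstream peak began 6.87 to 7.33 kb before it in 11 mice, divided once in KR replicate 2, and was a remnant of 819 bp in control replicate 2. Its widest peak measured 6936, 4113 and 7068 bp in control, 7186, 7282 and 7344 bp in EZ, 6938, 4362 and 7101 bp in KR, and 7223, 6955 and 7207 bp in KE. Control replicate 2 and KR replicate 2 were low, their widest peak being the downstream one and that of the other 10 mice the upstream one. The EZ values lay above all control values, and EZ and control did not overlap in 11.6% of all genes. The reference start itself lay in a peak in 5 of 12 mice, and with a window of 1 kb in place of 3 kb *Kdm6b* lost its call in control replicate 2.

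**Figure D2:**
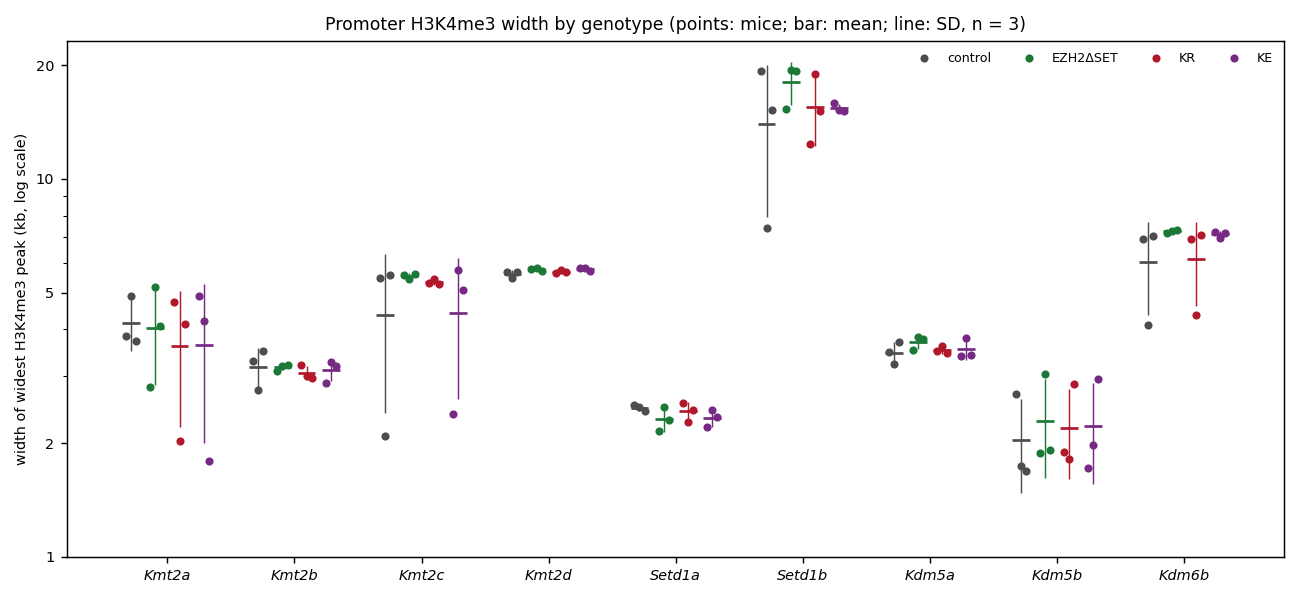
Width in kb (log scale) of the widest K4me3 peak within 3 kb of a TSS, for 9 genes and 4 genotypes, with points for mice, short bars for means and lines for SD (n = 3). *Setd1b* lies between 7.393 and 19.45 kb, and *Kmt2d* at 5.479 to 5.813 kb.

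In order of median width the genes were *Setd1b* (15304 bp), *Kdm6b* (7084.5 bp), *Kmt2d* (5706.5 bp), *Kmt2c* (5434 bp), *Kmt2a* (4102.5 bp), *Kdm5a* (3524.5 bp), *Kmt2b* (3205 bp), *Setd1a* (2438.5 bp) and *Kdm5b* (1903 bp, a median set by the upstream peak). Only *Setd1b* and *Kdm6b*, and *Kmt2b* and *Setd1a*, had ranges over the 12 mice that did not overlap their next neighbor's. Within a mouse, *Kmt2d* exceeded *Kmt2c*, and *Kdm5a* exceeded *Kmt2b*, in 12 of 12. *Kdm6b* exceeded *Kmt2d*, and *Kmt2c* exceeded *Kmt2a*, in 10 of 12, *Kmt2a* exceeded *Kdm5a* in 9, and *Setd1a* exceeded *Kdm5b* in 8. Median widths exceeded that of all 12478 genes (2330 bp) for 8 of the 9, and 4 (*Setd1b*, *Kdm6b*, *Kmt2d* and *Kmt2c*) were in the widest 10%. The place of *Kdm5b* holds for single peaks only. Its median was 2847 bp with joined and 4125 bp with summed peaks, where that of *Setd1a* stayed at 2438.5 bp. By comparison, 9 of 12 other COMPASS subunits were above the median of all genes and 0 in the widest 10%, and of 11 PRC2 genes 8 and 1, the latter being *Jarid2* with 5802 bp.

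**Figure D3:**
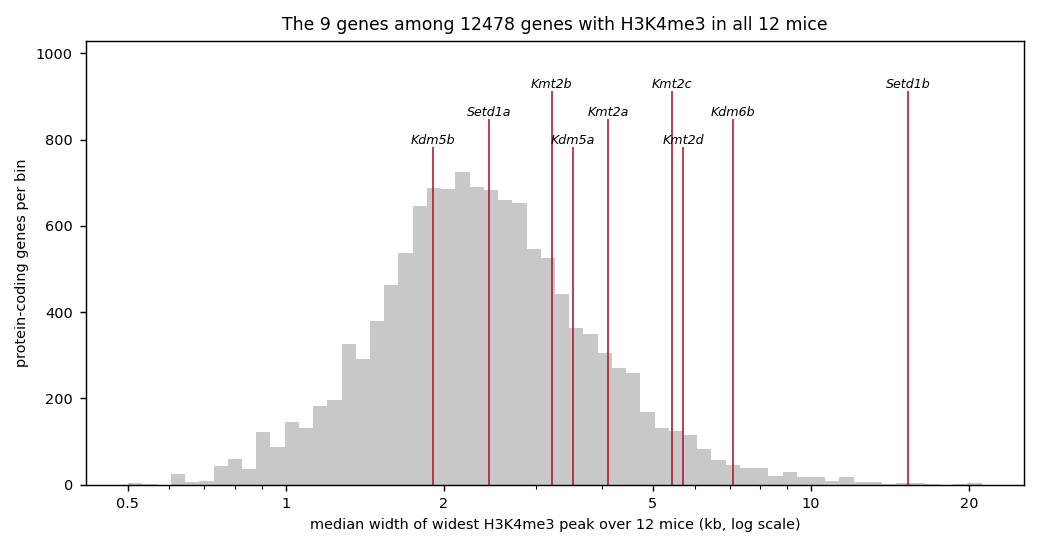
Histogram of the median width in kb over 12 mice (log scale) of the widest K4me3 peak for 12478 protein-coding genes with K4me3 in all mice, with red lines at the 9 genes. Only *Kdm5b*, at 1.903 kb, lies below the median of 2.33 kb, its widest peak being the one upstream of the TSS in 8 of 12 mice, and *Setd1b*, at 15.3 kb, lies in the far right tail.

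To ask whether these widths differed between genotypes, log2 widths of all 12478 genes were compared with limma. No member passed an adjusted p of 0.05 in any comparison, and with single peaks and all mice none had an unadjusted p below 0.05. Over all genes the test called 6 in KR against control (0.0481%), 3 in KE against KR (0.024%), 2 in KE against control (0.016%), 4 in EZ against control (0.0321%), 2 where the difference between KE and KR was set against that between EZ and control (0.016%) and 6 for any genotype (0.0481%), and 0 of 9 is near these shares. With an unadjusted p under 0.05 the numbers of genes were 550, 450, 614, 728, 340 and 534. The lists of 5 or fewer, named here after their values were seen, were *Ciapin1*, *Coq9* and *Pdk4* (KE against KR), *2310033P09Rik* and *Irf2bp2* (KE against control), *Ciapin1*, *Coq9*, *Gna12* and *Irf2bp2* (EZ against control), and *Gna12* and *Pdk4* (difference between the *Ezh2* comparisons). *Ciapin1* and *Coq9* on chromosome 8 had identical log2 differences in both of their lists (0.51 and 0.47). Several genes of chromosome 11 in KR against control shared the value 0.95. The totals are thus of genes and not of separate peaks. These totals rest on few mice and rose to 49, 18, 29, 23, 22 and 47 without control replicate 2, again with no member among them. Without control replicate 1 they were 0, 2, 0, 0, 2 and 4 (692, 425, 909, 1139, 414 and 549 unadjusted), and with a term for the sex chromosome difference 1, 0, 0, 0, 0 and 0 (295, 199, 516, 561, 234 and 368 unadjusted), so the named lists are not stable. Same-numbered KR and KE mice deviated together in 3 of 3 pairs (correlations 0.38, 0.12 and 0.20). Some mice of different number correlated more, such as control replicate 2 with KR replicate 1 (0.62) and with KE replicate 1 (0.40). With the replicate number as a block in KR and KE, KE against KR gave 1 gene in place of 3 (448 unadjusted) and no member.

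The precision differed between the genes. For *Kmt2d* the log2 difference was 0.02 in KR against control with a 95% confidence interval from -0.09 to 0.12, 0.02 (-0.08 to 0.13) in KE against KR, and 0.04 (-0.06 to 0.14) in both KE and EZ against control. For *Kdm5a* the same 4 differences were 0.03, 0.00, 0.03 and 0.10, each ± 0.15, for *Setd1a* -0.03, -0.06, -0.09 and -0.10, each ± 0.16, and for *Kmt2b* -0.05, 0.02, -0.02 and 0.00, each ± 0.20 (half-widths of the 95% interval). The *Kmt2b* value in KR against control rested in part on control replicate 2, since it was -0.15 ± 0.16 without that mouse and -0.18 ± 0.17 when KR replicate 1 was left out as well (adjusted p = 0.577 and 0.491). In EZ and KE against control it was -0.10 and -0.12 without control replicate 2, each ± 0.16. For *Kmt2a* the half-width was 0.92, for *Kmt2c* 0.86, for *Setd1b* 0.66, for *Kdm5b* 0.63 and for *Kdm6b* 0.49, so that sizable differences in either direction could not have been told from the spread between mice. These 5 genes are those whose peak was divided in some mice. With peaks under 1 kb apart joined, the half-width fell to 0.16 for *Kmt2c*, 0.25 for *Kmt2a*, 0.39 for *Setd1b*, 0.46 for *Kdm5b* and 0.37 for *Kdm6b*, and many of their estimates moved or turned. In the order KR against control, KE against KR, KE against control and EZ against control, *Kmt2c* went from 0.42, -0.37, 0.04 and 0.47 to 0.02, 0.02, 0.04 and 0.08. *Kmt2a* went from -0.28, -0.03, -0.31 and -0.08 to 0.07, 0.03, 0.10 and 0.35, so that its sign turned in all 4. *Setd1b* went from 0.24, 0.01, 0.25 and 0.47 to 0.23, 0.04, 0.27 and 0.27. Its joined width was 11126 bp in control replicate 2 and 18341 to 19653 bp elsewhere, so its joined values against control depend on that mouse. *Kdm5b* went from 0.10, 0.01, 0.11 and 0.16 to 0.02, 0.29, 0.30 and 0.30, and *Kdm6b* from 0.03, 0.25, 0.28 and 0.31 to 0.28, 0.00, 0.28 and 0.31. Joined *Kdm5b* was still the upstream peak in control replicate 2 and KR replicate 2 (1741 and 1819 bp, against 2697 to 3110 bp elsewhere). Joined *Kdm6b* was still the downstream peak in control replicate 2 (4113 bp, against 6936 to 7344 bp elsewhere). Joined widths were not tested with single mice left out. No adjusted p of any member was under 0.761 with joined peaks.

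**Figure D4:**
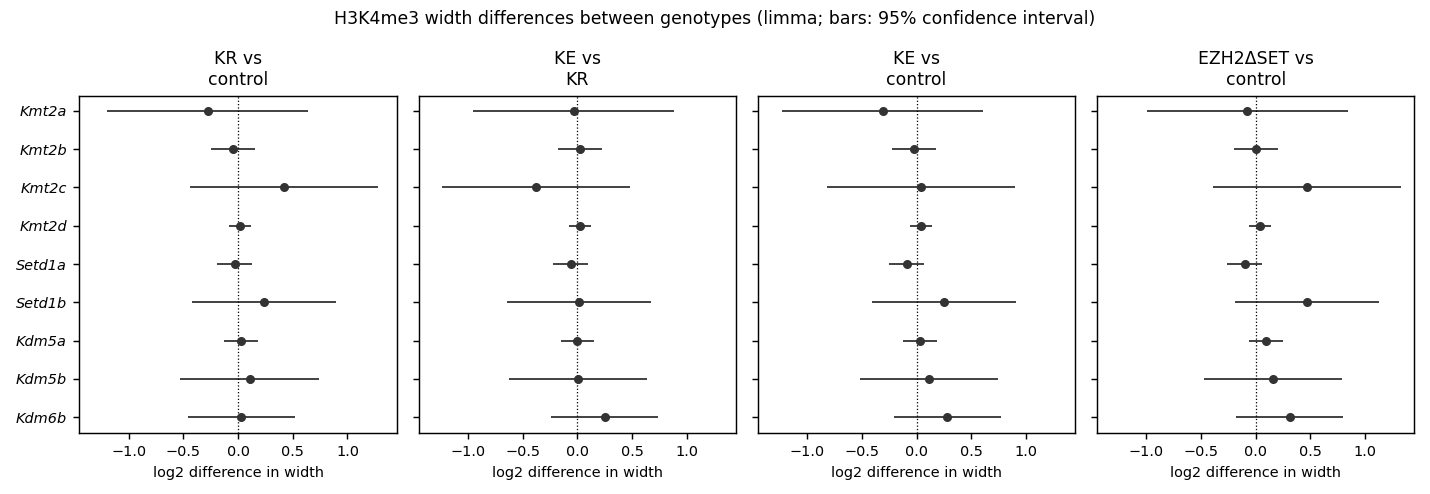
Log2 difference in K4me3 width between genotypes for the 9 genes (points) with 95% confidence intervals (lines) from limma, 1 panel per comparison. With single peaks, as drawn, every interval includes 0, and the intervals of *Kmt2b*, *Kmt2d*, *Setd1a* and *Kdm5a* are the narrowest.

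The values of all 5 genes with a divided peak depended on single mice, as shown by leaving out each of the 12 in turn. The ranges follow in the same order of comparisons. *Setd1b* ran from -0.17 to 0.52, -0.14 to 0.17, -0.16 to 0.53 and 0.06 to 0.75, and in the comparisons with control its lowest values came without control replicate 2 and its highest without control replicate 1. Its 0.75 in EZ against control had an unadjusted p of 0.0226 and a limma adjusted p of 0.529. Without both control replicate 2 and KR replicate 1 it was -0.02 in KR against control. *Kmt2c*, whose peak was divided in control replicate 2 and KE replicate 1, ran from -0.05 to 0.66, -0.62 to 0.02, -0.42 to 0.44 and 0.01 to 0.71, with the lowest values against control without control replicate 2. *Kdm6b* ran from -0.23 to 0.26, 0.02 to 0.37, 0.03 to 0.42 and 0.05 to 0.44, again lowest against control without control replicate 2. *Kmt2a* ran from -0.51 to 0.10, -0.41 to 0.42, -0.59 to 0.14 and -0.28 to 0.16, and *Kdm5b* from -0.11 to 0.32, -0.22 to 0.22, -0.12 to 0.33 and -0.07 to 0.37. Those of *Kmt2a* and *Kdm5b* thus held both signs in all 4 comparisons. For *Kmt2b*, *Kmt2d*, *Setd1a* and *Kdm5a* all such values lay between -0.15 and 0.14. A term for the sex chromosome difference left every adjusted p of the 9 genes above 0.05, but it moved or turned several estimates in the comparisons with KR and widened all their intervals. In KR against control *Kdm5b* turned from 0.10 to -0.58 ± 1.05 and *Kdm5a* from 0.03 to -0.04 ± 0.29, while *Kmt2d* went from 0.02 to 0.00 ± 0.20, *Kmt2a* from -0.28 to -0.89 ± 1.69, *Setd1a* from -0.03 to -0.20 ± 0.27 and *Setd1b* from 0.24 to 0.06 ± 1.26. In KE against KR *Kmt2a* turned from -0.03 to 0.58 ± 1.69 and *Setd1a* from -0.06 to 0.11 ± 0.27, and *Kdm5b* went from 0.01 to 0.69 ± 1.05. In EZ against control *Kdm5b* turned from 0.16 to -0.07 ± 0.65. Every one of these intervals includes 0, and the term is estimated only from EZ replicate 2 against the other EZ mice.

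Counts of genes whose 3 and 3 mice did not overlap gave a coarser view. In EZ against control, 2 of the 9 genes (*Kmt2d* and *Kdm6b*, both wider in EZ) did not overlap, against 11.6% of all genes. With each library centered on its median width, the fitted *Kmt2d* difference turned from 0.04 to -0.01 and that of *Kdm6b* was 0.26. With joined peaks *Kmt2a* made it 3 of 9, against the 11.7% given above. In KE against control it was 1 (*Kmt2d*, wider in KE) against 8.01%, and in KR against control and KE against KR 0 against 7.5% and 9.22%. An exact test of 3 against 3 mice cannot go below p = 0.1. The median log2 difference of the 9 genes was 0.03 in KR against control, 0.01 in KE against KR, 0.04 in KE against control and 0.10 in EZ against control, beside 0.01, 0.02, 0.03 and 0.06 over all genes tested. With single mice left out the medians of the 9 genes ran from -0.05 to 0.08, -0.01 to 0.02, -0.09 to 0.06 and 0.03 to 0.16, and those of all genes from -0.04 to 0.04, 0.00 to 0.05, -0.01 to 0.07 and 0.01 to 0.09. With each library centered they were 0.02, -0.01, 0.02 and 0.05, beside 0.00, 0.01, 0.01 and 0.01 over all genes. The sign of the median was therefore not stable except in EZ against control. There it was below that of all genes without EZ replicate 2 (0.03 and 0.06) and without control replicate 3 (0.08 and 0.09). The same held with the sex chromosome term (0.03 and 0.06).

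The distance to the nearest K27me3 peak was measured for the 9 genes alone, so how it compares with other genes was not tested. The nearest peak to the reference TSS was 20.9 kb away at the closest (*Kmt2d* in control replicate 2), the median distance over 108 pairs of gene and mouse was 546 kb, and 94 pairs had none within 100 kb. The study's longer window for K27me3 starts 100 kb before a TSS and ends 3 kb after it. Of all pairs of protein-coding gene and mouse, with or without K4me3, 36.1% had a peak there, and 35.2% of those with an autosomal gene. Among the 9 genes, 10 of 108 pairs (9.26%) had one. These were *Kmt2b* and *Kdm5a* in 3 mice each and *Kmt2c* and *Kmt2d* in 2 each. By mouse, 4 calls came from control replicate 2, 3 from KR replicate 1, and 1 each from EZ replicate 2, KR replicate 2 and KE replicate 1. Control replicate 2 and KR replicate 1 also had the most calls over all genes in this window (54.7% and 41.1%, against 28.1% to 37.3% in the other mice). All but that of KR replicate 2 were in the 4 mice with K4me3 at the leukocyte gene *Ptprc*, whose part in these calls was not tested. *Kmt2a*, *Setd1a*, *Setd1b*, *Kdm5b* and *Kdm6b* had none in any mouse.

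**Figure D5:**
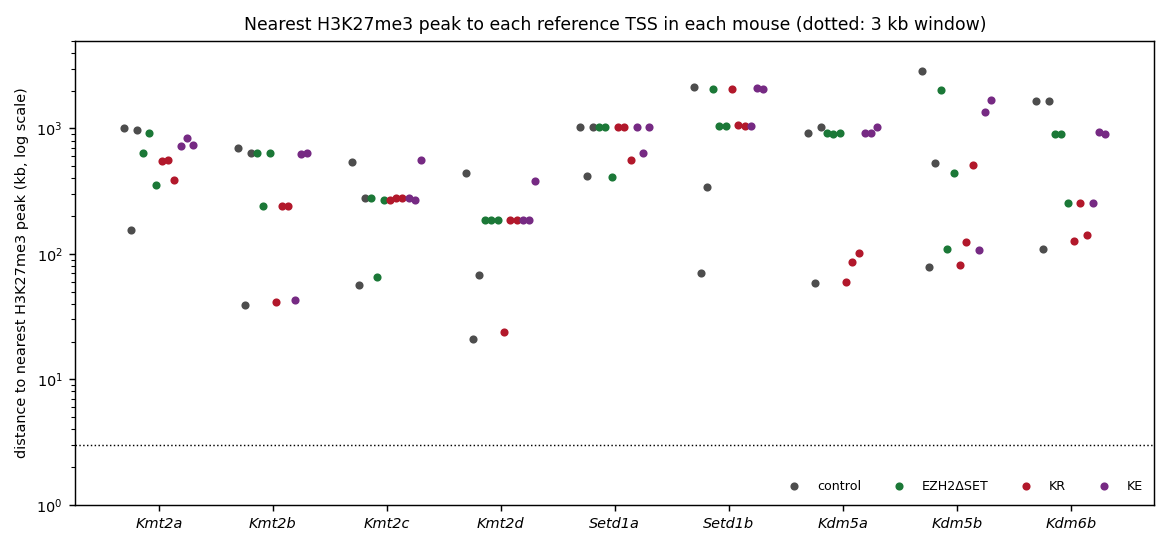
Distance in kb (log scale) from the reference TSS of each gene to the nearest K27me3 peak, with 1 point per mouse colored by genotype and a dotted line at the 3 kb window. All 108 points lie at 20.9 kb or more.

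Most partner genes had K4me3 without K27me3 in all mice, and those whose calls differed between mice are named here. All 12 COMPASS subunits had K4me3 in 12 of 12 mice, and 2 had K27me3 in some: *Hcfc1*, on the X chromosome, in 4 mice with K4me3 at *Xist*, and *Paxip1* in control replicate 2. *Prdm9*, *Setd7* and *Smyd3*, other methyltransferases of lysine 4, had K4me3 in all mice and K27me3 in none. Of 6 other demethylases, *Kdm1a* and *Kdm1b* had K4me3 alone in all mice. The X-linked *Kdm5c* and *Kdm6a* had K4me3 in all mice and K27me3 in control replicate 2, and their Y-linked relatives *Kdm5d* and *Uty* had K4me3 in EZ replicate 2 and the 3 KR mice. All 11 PRC2 genes had K4me3 in 12 of 12 mice, with K27me3 at *Ezh1* in control replicate 2 and at the X-linked *Rbbp7* in 6 mice.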

How the data were processed

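The authors sequenced ChIP DNA from whole pancreas, checked reads with FastQC, used Bowtie2 for alignment to mm10, and ran HOMER findPeaks in histone mode on each sample against its input (versions not given in the sources used here). The deposited lists give peak positions and a score that is 1 for every peak, so neither depth nor counting error can be given. Inputs were not analyzed here, and 1 marker gene and the identity of an allele are not reported here. A gene was called when a peak overlapped 3 kb on either side of any GENCODE M21 TSS. Its width was that of the widest such peak, and distances are from the 5′-most TSS of a principal transcript. Log2 widths of the 12478 protein-coding genes with K4me3 in all 12 mice were fitted with limma 3.58.1 (R 4.3.3) over the 4 genotypes and adjusted by Benjamini-Hochberg, with 0.05 as the threshold. The code was tested on simulated data. Python 3.11.15 was used otherwise. The p-values measure the spread between the mice sampled. All 9 genes are named, other pathway, marker and neighboring genes by fixed lists or by a start within a member's peak. Genes and lists were chosen with earlier results of these data known. Some partner genes, including the X-linked ones, were named because calls differed between mice. Alternatives were library centering, replicate block, other windows, starts, joining, summing, gene sets, minimum widths and overlaps, equal peak numbers and each mouse left out. Those added after seeing the data were joining with centering, a sex chromosome term, a replicate block in KR and KE alone, and leaving out control replicate 2 with KR replicate 1. Replicate numbers come from the sample labels, which do not say what they share, and same-numbered mice correlated over 0.1 in every pair only between KR and KE.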

Additional observations from a re-analysis of the deposited data

How the results depend on the processing

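No member passed an adjusted p of 0.05 under any of 25 alternatives (lowest 0.408). Of their 1084 values against the reported differences, 110 changed sign and 26 moved by more than 1 SD within genotypes, and all of these lay on the same side of the threshold. An unadjusted p under 0.05 was seen in 3: *Kmt2a* in EZ against control with joined peaks, *Setd1b* in EZ against control without control replicate 1, and *Kmt2b* in KR against control without control replicate 2 and KR replicate 1. Presence counts gave 9 of 9 genes with K4me3 and 0 calls of K27me3 in each genotype under every alternative, except 8 of 9 in control with a 1 kb window. Each of these alternatives only tightens the call or drops mice, so none could have added a K27me3 call. Counts over all genes were less stable. In the order KR against control, KE against KR, KE against control, EZ against control, the difference between the *Ezh2* comparisons, and any genotype, 6, 3, 2, 4, 2 and 6 genes were called. The replicate block gave 0, 0, 0, 0, 1 and 0 (461, 377, 486, 568, 287 and 444 at an unadjusted p under 0.05). Over all genotypes same-numbered mice did not deviate together (18 pairs, correlations -0.53 to 0.38, 7 over 0.1), but all 3 pairs of KR and KE mice were over 0.1, although KR replicate 2 correlated more with KE replicate 3 (0.19) than with KE replicate 2 (0.12). A replicate block in KR and KE alone gave 1 gene in KE against KR (448 unadjusted). The sex chromosome term gave 1, 0, 0, 0, 0 and 0 (295, 199, 516, 561, 234 and 368 unadjusted). Centering gave 10, 5 and 0 (815 unadjusted) in the first 3 comparisons and 15 for any genotype, and centering with joined peaks 11 in the first and 12 for any genotype. Summed widths gave 0, 0 and 1 for KE against control, EZ against control and the difference between *Ezh2* comparisons (583, 759 and 329 unadjusted), and genes of every biotype 4 in KE against control. Leaving out 1 mouse gave 0 to 49, 1 to 18, 0 to 29, 0 to 23, 2 to 22 and 4 to 47, with every upper end reached without control replicate 2 (0 without control replicate 1 or KR replicate 3 in the first, 1 without EZ replicate 1, EZ replicate 3 or KR replicate 1 in the second, 0 without control replicate 1, EZ replicates 1 or 2 or KR replicate 1 in the third, and 0 without control replicate 1, EZ replicate 2 or EZ replicate 3 in the fourth, with 447 to 1139 unadjusted wherever it was 0). Without control replicate 2 and KR replicate 1 the counts were 56, 24, 27, 25, 20 and 50. The cause of these shifts was not tested. Depth is unknown for every library, so what part it has in peak numbers and widths could not be tested.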
